A study of Mus musculus with 17 samples.

Results

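The 10 genes described here are the activin subunits Inhba, Inhbb, Inhbc and Inhbe, the activin binder Fst, the TGF-beta ligands Tgfb1, Tgfb2 and Tgfb3, and the inhibitors Bambi and Smad7. They were chosen by symbol, with earlier results of these data known, and all 13 probes that carry 1 of these symbols were used, of 21461 genes with a symbol on the array. Because the genes were chosen with their log2 ratios in view, their differences between groups are given as a description, and the calls of the fit across all probes, which are counted further on, support nothing about them. Liver RNA of 17 male mice was measured on 2-colour Agilent oligonucleotide arrays, 1 array per mouse, with the liver in the Cy5 channel and a common reference in the Cy3 channel of every array. The source label of the reference names a commercial mixed mouse RNA and its tissue label reads liver. The labels give the strain as C57BL/6N and the methods as C57BL/6J, and no group carried a deletion or a transgene. The chow mice had a standard diet and a maltose gavage (n = 4), and the 1B mice had the standard diet and a single ethanol gavage of 5 g/kg (n = 4). The HFD mice had a high-fat diet for 3 months and a maltose gavage (n = 4), and the HFD+1B mice had the high-fat diet for 3 months and the same ethanol gavage (n = 5). Livers were taken 9 hours after the gavage. Each group thus shows a single time point after a single dose in whole liver, in which fewer cells of a type and less RNA per cell cannot be told apart.

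Activins are dimers of inhibin beta subunits and belong, with the TGF-beta ligands, to a family of secreted factors that bind pairs of type II and type I receptor kinases. Activins and TGF-betas signal through Smad2 and Smad3, which enter the nucleus with Smad4. Follistatin, the product of Fst, binds activins outside the cell, Bambi is a pseudoreceptor without a kinase, and Smad7 blocks the activated type I receptor. In liver the activin C and E subunits are made mainly by hepatocytes, and TGF-beta1 is the best-known inducer of matrix genes in hepatic stellate cells.

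The start of the probe is shown for genes whose values differed most between groups and for both probes of Inhbb and Inhbc. Bambi also had 2 probes, which are not shown. Each probe is 60 bases long, and its first 30 bases are given 5′ to 3′ with no part in capitals. The longest run of bases shared by probes of different genes among the 13 was 9, and the paired probes of Inhbb and Inhbc shared runs of at most 6 bases.
Inhba: tcaacatttgctgtaagaaacagttctttg
Inhbc, brighter probe: tagaggctaatcgactgcctaccacaagca
Inhbc, dimmer probe: gactggatcatccagcctgaaggctatgcc
Inhbe: gcttccccctcgaggacaggacccacgcgg
Fst: gatccattggattagcctatgagggaaagt
Inhbb, brighter probe: agaagaaggtggacctgaaacgtagcggct
Inhbb, dimmer probe: cataataacttaaaaccaaagaattttccc

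The 250 bases before the start of Inhba, Inhbc and Inhbe are shown because Inhba had the largest difference between 1B and chow, and because Inhbc and Inhbe, which are neighbouring genes on chromosome 10, were both lowest in HFD+1B. The sequences are those of RefSeq on GRCm38.p6, in a table that matched 6 of the 10 genes, and promoters of Fst, Tgfb3, Bambi and Smad7 were not analysed here. They were read 5′ to 3′ on the strand of the gene, at chr13:16011601-16011850 on the plus strand for Inhba, at chr10:127370549-127370798 on the minus strand for Inhbc, and at chr10:127351849-127352098 on the minus strand for Inhbe. Capitals mark the letters of a motif found on either strand.
Inhba: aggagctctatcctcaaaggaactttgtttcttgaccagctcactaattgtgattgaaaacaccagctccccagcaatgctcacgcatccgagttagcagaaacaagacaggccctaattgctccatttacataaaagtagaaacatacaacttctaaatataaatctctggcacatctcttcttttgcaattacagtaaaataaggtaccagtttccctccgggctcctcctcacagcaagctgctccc
Inhbc: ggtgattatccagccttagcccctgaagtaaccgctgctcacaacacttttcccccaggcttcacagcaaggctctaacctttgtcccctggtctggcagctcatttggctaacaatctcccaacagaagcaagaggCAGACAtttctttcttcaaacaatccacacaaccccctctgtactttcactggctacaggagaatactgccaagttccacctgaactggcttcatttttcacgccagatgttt
Inhbe: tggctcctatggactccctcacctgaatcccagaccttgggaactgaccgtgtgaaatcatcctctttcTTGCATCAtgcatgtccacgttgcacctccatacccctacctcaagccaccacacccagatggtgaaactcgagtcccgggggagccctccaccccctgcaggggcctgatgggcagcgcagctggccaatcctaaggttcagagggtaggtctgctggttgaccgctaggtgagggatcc

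The motifs searched were the Smad palindrome GTCTAGAC, which 0.167% of all 32851 promoter windows of this length hold, the CAGA box CAGACA (17.1%), the AP-1 site TGACTCA (4.46%), the cAMP response element TGACGTCA (1.55%), the E-box CACGTG (6.02%) and the C/EBP-ATF composite site TGATGCAA (0.791%), whose letters were set after the Inhbe promoter had been read. The Inhbc window held a CAGA box, from base 113 to base 108 before the start. The Inhbe window held the composite site on the opposite strand, as TTGCATCA, from base 181 to base 174 before the start. The Inhba window held none of the 6 motifs, which says only that these letters are not in it. G and C made up 43.2% of the Inhba window, 48.8% of the Inhbc window and 58.8% of the Inhbe window, against a median of 52.4% over all windows.

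Unless a signal is named, values are log2 ratios of liver to reference after normalization within each array, so that a difference of 1 is a doubling. A gene is described by its brightest tested probe, and a probe was tested when at least 4 arrays had its liver signal well above background. Of the 13 probes, 12 were tested, and they cover 9 genes. Tgfb2 was not tested, since its probe was well above background on 1 of 17 arrays, that of HFD+1B mouse 4, and its log2 ratios lay between -0.16 and 0.15 in all groups. Inhba and Fst were each well above background on 15 arrays, missing in 1 of 4 HFD and 1 of 5 HFD+1B mice for Inhba and in 2 of 4 HFD mice for Fst. The other 7 genes were well above background on all 17 arrays. Median Cy5 signals ran from 99 to 138 on chow arrays, 69 to 134 on 1B arrays, 63 to 98 on HFD arrays and 90 to 158 on HFD+1B arrays, so that the highest of the HFD arrays was below the lowest of the chow arrays. The 10 hepatocyte markers, among them Alb and Ttr, were all tested.

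**Figure D1:**
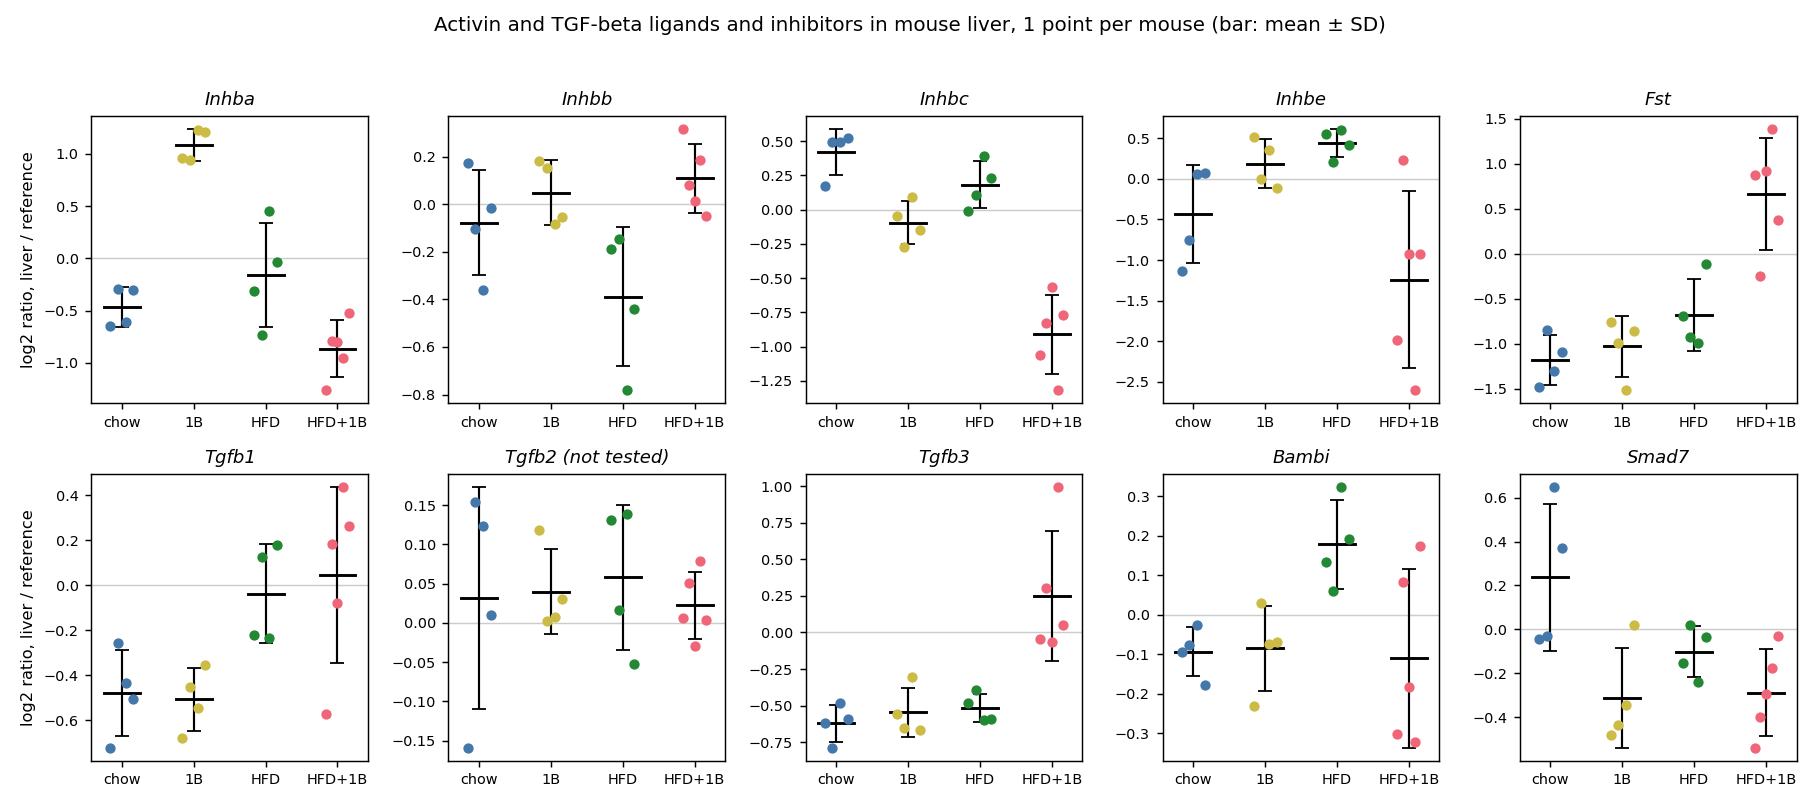
Log2 ratio of liver to reference (y axis, own scale in each panel) of the 10 genes in chow, 1B, HFD and HFD+1B mice, with 1 point per mouse, the mean as a horizontal line and the SD as a bar. Inhba is above 0.9 in every 1B mouse, and Inhbc is below -0.5 in every HFD+1B mouse and in no other, while Fst is highest in HFD+1B.

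In 1B mice, Inhba, which encodes the subunit of activin A, was the one gene of the 9 with a difference from chow of more than 2-fold. Its log2 ratio was -0.64, -0.29, -0.61 and -0.30 in the chow mice and 0.96, 0.94, 1.23 and 1.21 in the 1B mice. All 4 1B mice were above all 4 chow mice. The means were -0.46 (SD 0.19) and 1.08 (SD 0.15), a difference of 1.55 (SE 0.20, 95% interval 1.14 to 1.96), or 2.92-fold. On the 3 slides that held both groups the difference was 1.24 to 1.84. In the deposited log2 ratios it was 2.29, and there it was not called.

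The binge did not have this size or direction for Inhba on the high-fat diet. The log2 ratio was -0.32, -0.74, 0.45 and -0.03 in the HFD mice and -1.26, -0.79, -0.80, -0.95 and -0.52 in the HFD+1B mice. The groups overlapped through HFD mouse 2 only, and HFD+1B differed from HFD by -0.70 (SE 0.19). Without HFD mouse 3, the highest of its group, this difference was -0.50 and was not called. Within the 4 slides that held both groups it ran from -1.25 to 0.21, below 0 on 3 of them. It was -0.41 from Cy5 alone and -1.10 in the deposited log2 ratios, and was called in neither. HFD+1B lay below 1B in every mouse, with a difference of -1.95 (SE 0.19), or 3.86-fold. The difference between the ethanol effects on the 2 diets, the interaction, was -2.25 (SE 0.27), and it lay between -2.44 and -2.05 when any 1 mouse was left out. The order of the group means was thus HFD+1B, chow, HFD and 1B, and of these neighbours only HFD and 1B did not overlap.

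Inhbc, the activin C subunit, was lowest in HFD+1B. Chow mice gave log2 ratios of 0.17, 0.49, 0.49 and 0.53, 1B mice -0.05, -0.28, 0.09 and -0.15, HFD mice -0.01, 0.11, 0.39 and 0.23 and HFD+1B mice -1.06, -0.83, -0.57, -1.32 and -0.77. All 5 HFD+1B mice lay below all 12 others, and all 1B mice lay below all chow mice. HFD+1B differed from chow by -1.33 (SE 0.14), from HFD by -1.09 (SE 0.14) and from 1B by -0.81 (SE 0.14). The difference between 1B and chow was -0.52 (SE 0.14) and that between HFD and chow -0.24 (SE 0.14). On the dimmer probe of the gene, HFD+1B also lay below every other mouse, with differences of -1.14 (SE 0.12) from chow, -0.97 (SE 0.12) from HFD and -0.82 (SE 0.12) from 1B. The interaction was -0.57 (SE 0.20) on the brighter and -0.65 (SE 0.17) on the dimmer probe.

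Inhbe, the activin E subunit, was spread most widely in HFD+1B. Chow mice gave log2 ratios of -1.13, -0.75, 0.06 and 0.08, 1B mice 0.52, -0.01, 0.36 and -0.12, HFD mice 0.55, 0.21, 0.60 and 0.41 and HFD+1B mice -1.98, 0.23, -0.93, -2.60 and -0.92. HFD+1B mouse 2 lay within the HFD range and the other 4 HFD+1B mice lay below all HFD and all 1B mice. The mean was -1.24 (SD 1.09) in HFD+1B and 0.44 (SD 0.17) in HFD, a difference of -1.68 (SE 0.40), which was -2.05 without HFD+1B mouse 2 and -1.34 without HFD+1B mouse 4. All HFD mice lay above all chow mice, by 0.88 (SE 0.42), and 1B exceeded chow by 0.62 (SE 0.42). The interaction was -2.31 (SE 0.58), as large as that of Inhba but with an error more than double. Within the slides that held both groups, HFD+1B differed from HFD by -3.01 to -1.13.

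Beside these hepatocyte genes, 2 of the 10 hepatocyte markers were higher and 1 was lower in HFD+1B than in HFD, with a median difference of -0.13, and the summed Cy5 signal of the list ran from 441766 to 501814 for chow, from 403734 to 544182 for 1B, from 182084 to 518285 for HFD and from 411916 to 503548 for HFD+1B mice. These sums are Cy5 signals over background without normalization, so they also carry the array brightness given above. The mean log2 ratio of the list ran from 0.28 to 0.38 for chow and from 0.38 to 0.46 for 1B mice. It ran from 0.17 to 0.32 for HFD and from 0.12 to 0.68 for HFD+1B mice. Beside the marker counts between HFD+1B and HFD, 9.92% of all probes were called higher and 8.02% lower, and nothing is read from the counts. The part of hepatocyte content in the values of Inhbc and Inhbe was not tested.

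Inhbb, the subunit of activin B, gave different pictures on its 2 probes. On the brighter probe the HFD mean was lowest. The HFD mice, at -0.19, -0.14, -0.78 and -0.44, all lay below the HFD+1B mice, at 0.32, 0.08, 0.01, 0.19 and -0.05, but overlapped with chow, whose mouse 3 was at -0.36. The difference was 0.50 (SE 0.13), and 0.37 without HFD mouse 3. On the dimmer probe the chow mean was lowest, although 1B mouse 3, at -0.63, lay below every chow mouse. The chow mice, at -0.03, -0.15, -0.59 and -0.60, all lay below the HFD+1B mice, at 0.81, 0.34, 0.59, 0.06 and 0.46. Their difference was 0.80 (SE 0.21), where the brighter probe gave 0.19 (SE 0.13). For HFD against chow the probes differed in sign, at -0.31 (SE 0.14) and 0.45 (SE 0.22). For HFD+1B against HFD, the dimmer probe gave 0.35 (SE 0.21), of the same sign as the brighter.

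Fst, whose product neutralizes activins, was highest in HFD+1B. Chow mice gave log2 ratios of -1.48, -0.84, -1.31 and -1.09, 1B mice -0.75, -0.99, -1.52 and -0.86, HFD mice -0.69, -0.93, -0.99 and -0.11 and HFD+1B mice 0.87, -0.24, 0.92, 1.38 and 0.38. All HFD+1B mice lay above all chow and all 1B mice. The overlap with HFD rested on HFD mouse 4, in which the probe was not well above background and the liver signal over background was 5.5, and on HFD+1B mouse 2. HFD+1B differed from chow by 1.84 (SE 0.26), or 3.58-fold, from 1B by 1.69 (SE 0.26) and from HFD by 1.34 (SE 0.26). Ethanol on chow moved the mean by 0.15 (SE 0.28), and the interaction was 1.19 (SE 0.38). In the deposited log2 ratios, HFD+1B exceeded chow by 3.25 for Fst and differed from 1B by -3.49 for Inhba, and the cause of these larger values was not tested.

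**Figure D2:**
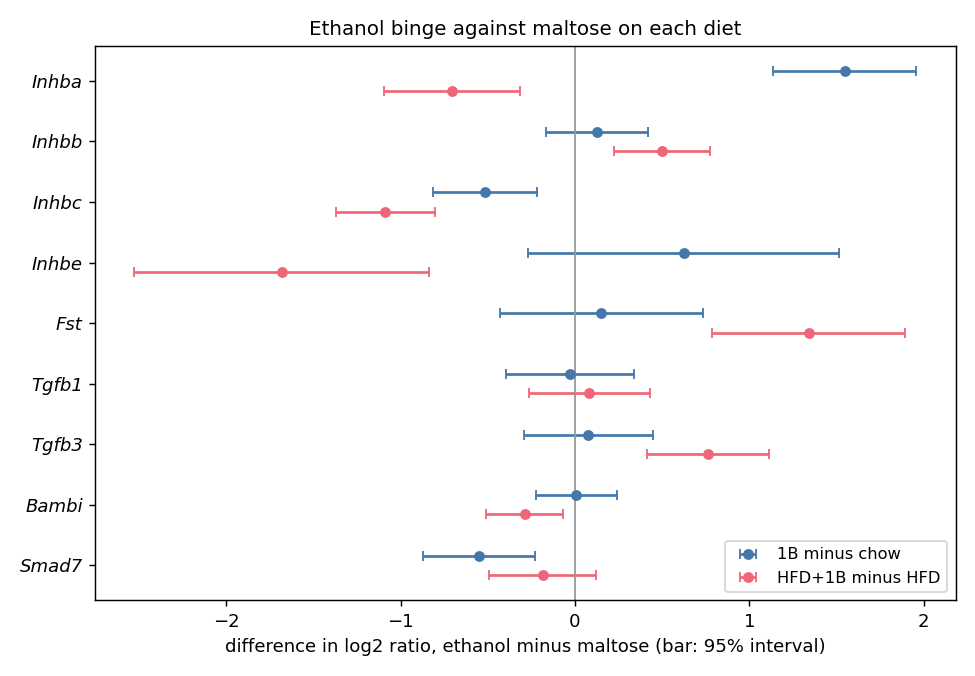
Difference in log2 ratio between ethanol and maltose (x axis) for the 9 tested genes, on chow (1B minus chow, blue) and on the high-fat diet (HFD+1B minus HFD, red), as points with 95% intervals. The difference of Inhba is 1.55 on chow and -0.70 on the high-fat diet, and that of Fst is 0.15 and 1.34.

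Of the TGF-beta ligands, Tgfb1 varied with the diet and Tgfb3 was highest in HFD+1B. For Tgfb1, chow mice gave log2 ratios of -0.72, -0.25, -0.43 and -0.50, 1B mice -0.68, -0.45, -0.55 and -0.35, HFD mice -0.22, 0.13, -0.24 and 0.18 and HFD+1B mice -0.57, 0.18, -0.08, 0.43 and 0.26. All HFD mice lay above all chow mice, by 0.44 (SE 0.17), while HFD+1B mouse 1 stayed in the chow range. HFD+1B differed from chow by 0.52 (SE 0.16), and by 0.68 without that mouse, and from HFD by 0.08 (95% interval -0.26 to 0.43). For 1B against chow the difference was -0.03 (95% interval -0.39 to 0.34).

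For Tgfb3, chow mice gave log2 ratios of -0.62, -0.79, -0.48 and -0.59, 1B mice -0.56, -0.65, -0.30 and -0.67, HFD mice -0.48, -0.39, -0.60 and -0.59 and HFD+1B mice -0.05, 0.30, -0.06, 1.00 and 0.05. All 5 HFD+1B mice lay above the 12 others, and mouse 4 lay apart at the top. The difference was 0.87 (SE 0.17) from chow, 0.79 (SE 0.17) from 1B and 0.77 (SE 0.17) from HFD, and without HFD+1B mouse 4 the last was 0.58. The interaction was 0.69 (SE 0.24).

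Among markers of the cells known to make TGF-beta, 3 of 10 stellate cell markers rose in HFD and 5 of 10 in HFD+1B against chow, with median differences of 0.53 and 0.59, and none fell. Their mean log2 ratio ran from -0.47 to -0.22 for chow, from -0.27 to -0.20 for 1B, from -0.02 to 0.22 for HFD and from -0.25 to 0.50 for HFD+1B mice, and their summed Cy5 signal was 14287 to 22910, 11236 to 27005, 4073 to 20973 and 14094 to 22519 in the same order. Of the 9 tested macrophage markers, 3 rose in each of HFD and HFD+1B against chow, with medians of 0.45 and 0.32, and with summed signals from 4874 to 7205 for chow, from 3755 to 6291 for 1B, from 2772 to 7751 for HFD and from 5096 to 13969 for HFD+1B mice. In HFD+1B against chow, 3 of 11 neutrophil markers rose and 1 fell (median -0.04), 1 of 6 platelet markers rose (median 0.06), none of 5 T cell markers was called (median 0.06), 1 of 6 cholangiocyte markers rose (median 0.19) and 2 of 10 endothelial markers rose and 3 fell. From HFD to HFD+1B, 2 of the stellate cell markers rose (median 0.06), no macrophage marker was called (median -0.02), 2 neutrophil markers rose and 1 fell (median 0.04), 1 platelet marker rose (median 0.24), 1 T cell marker rose (median 0.07), 3 cholangiocyte markers rose (median 0.49), and 2 endothelial markers rose and 4 fell (median -0.29). Of all probes, 9.92% were called higher and 8.02% lower from HFD to HFD+1B. Against chow, 3.88% were called higher and 6.1% lower in HFD, and 7.8% and 6.98% in HFD+1B. These shares are by probe and the marker counts by gene, and nothing is read from the counts. The summed signal of the platelet markers ran from 531 to 1546 for HFD and from 1346 to 7179 for HFD+1B mice. That of the neutrophil markers ran from 2286 to 5452 and from 4235 to 7809. All such sums were not normalized, and the HFD arrays were dimmer. The normalized mean log2 ratio of the platelet markers ran from -0.30 to -0.03 for HFD and from -0.14 to 0.19 for HFD+1B mice. For the neutrophil markers it ran from -0.04 to 0.46 and from 0.10 to 0.54. For the macrophage markers it ran from 0.14 to 0.30 and from -0.05 to 0.57. The ranges of HFD and HFD+1B thus overlapped for the platelet, neutrophil and macrophage markers. For the cholangiocyte markers they did not overlap, at -0.45 to -0.15 for HFD and -0.02 to 0.64 for HFD+1B mice. The part of these cells in the values of Tgfb1, Tgfb3 and Fst was not tested.

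Of the inhibitors that act at or below the receptor, Smad7 was highest in chow. Chow mice gave log2 ratios of -0.04, -0.03, 0.65 and 0.37, 1B mice -0.48, -0.44, -0.35 and 0.02, HFD mice -0.15, 0.02, -0.24 and -0.04 and HFD+1B mice -0.54, -0.40, -0.30, -0.18 and -0.03. The other groups overlapped with chow through its lower mice, and the differences from chow were -0.55 (SE 0.15) for 1B, -0.34 (SE 0.15) for HFD and -0.53 (SE 0.15) for HFD+1B. Without chow mouse 3 the last was -0.39. Bambi differed little. Its brighter probe averaged -0.09 for chow, -0.09 for 1B, 0.18 for HFD and -0.11 for HFD+1B, and all HFD mice lay above all chow mice, by 0.27 (SE 0.11). HFD+1B was lower than HFD, with a difference of -0.29 (SE 0.10), and on the dimmer probe these differences were 0.15 (SE 0.15) and -0.06 (SE 0.15). The reference signal of the dimmer probe was well above background on only 4 of 17 arrays, and that of the brighter probe on all 17.

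**Figure D3:**
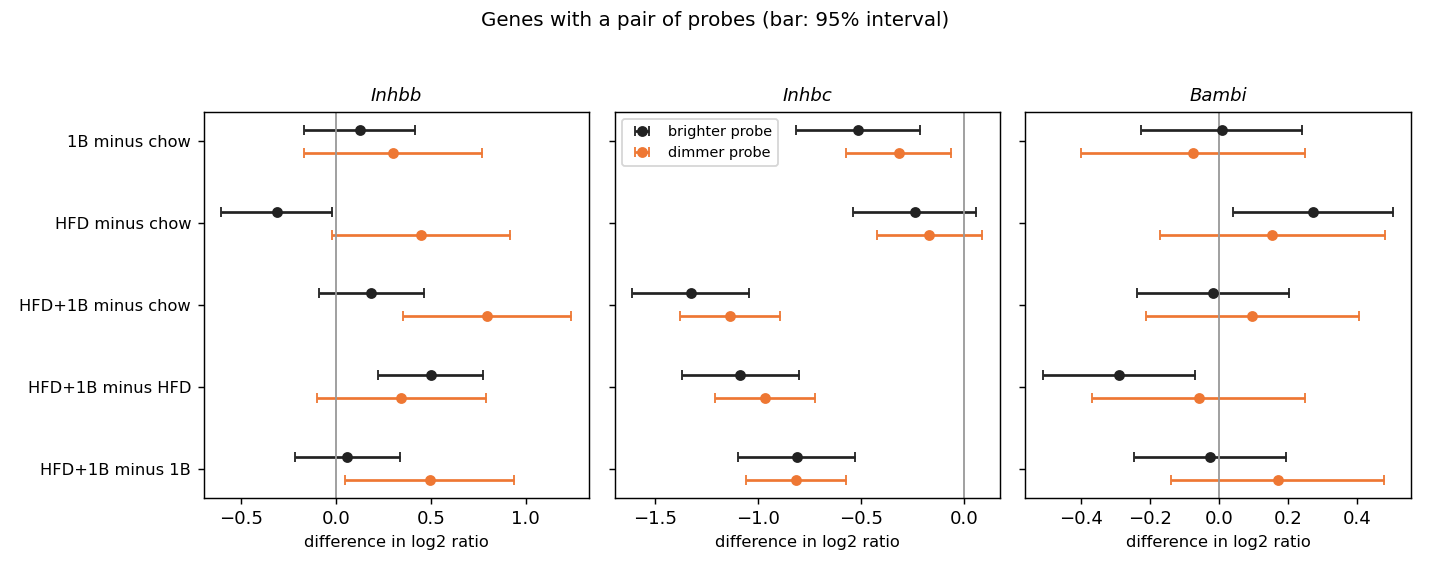
Differences in log2 ratio (x axis) of Inhbb, Inhbc and Bambi in 5 comparisons, on the brighter probe (black) and the dimmer probe (orange), as points with 95% intervals. Both probes of Inhbc lie below 0 in all 5, and the probes of Inhbb lie on opposite sides of 0 for HFD minus chow, at -0.31 and 0.45.

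A probe was called when its limma p-value, adjusted over all 34650 tested probes, was 0.05 or less. In 1B against chow, 1 of the 9 genes was called higher (Inhba) and none lower, beside 1.84% of all probes higher and 1.78% lower, and with slide as a block Inhba and Smad7 were called. Without chow mouse 1, 3 were called. In HFD+1B against HFD, 3 were called higher (Inhbb, Fst and Tgfb3) and 3 lower (Inhba, Inhbc and Inhbe), beside 9.92% and 8.02%. In HFD against chow none was called, beside 3.88% higher and 6.1% lower. An unadjusted limma p-value of 0.05 or less was reached by 4, but the share of all probes at that threshold was not computed. An analysis of variance with Tukey's test called none in this comparison. With slide as a block, limma called 2 there (Inhbe and Tgfb1, both higher). In HFD+1B against 1B, 3 were called higher (Fst, Tgfb1 and Tgfb3) and 3 lower (Inhba, Inhbc and Inhbe), beside 5.3% and 4.7%. In HFD+1B against chow, 3 were called higher (Fst, Tgfb1 and Tgfb3) and 2 lower (Inhbc and Smad7), beside 7.8% and 6.98%. For the interaction none was called higher and 2 were called lower (Inhba and Inhbe), beside 2.51% and 1.6%, and with slide as a block 4 were called (Inhba, Inhbc, Inhbe and Fst). Since the genes were chosen on these values, nothing is read from these counts. The median difference over all 19359 tested genes was between -0.01 and 0.01 in each comparison.

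The other genes of the pathway came from 7 lists by role with 115 genes, of which 110 were tested. The lists were chosen with earlier results of these data known. Each gene is counted by its brightest tested probe, while the shares beside the counts are over every tested probe. The counts and shares are thus not of like kind, here and for the single lists below. In HFD+1B against HFD, 25 of these 110 rose and 1 fell (22.7% and 0.909%), beside 9.92% and 8.02% of all probes. Against chow, 30 rose and 8 fell in HFD+1B (27.3% and 7.27%), beside 7.8% and 6.98%. In 1B against chow, 3 rose and 5 fell (2.73% and 4.55%), beside 1.84% and 1.78%, and in HFD against chow 13 rose and 9 fell (11.8% and 8.18%), beside 3.88% and 6.1%. Against 1B, 26 rose and 2 fell in HFD+1B (23.6% and 1.82%), beside 5.3% and 4.7%. The median differences of the 110 genes were 0.02 for 1B and 0.01 for HFD against chow, and 0.12, 0.10 and 0.13 for HFD+1B against HFD, 1B and chow. With median centring in place of loess, 9 rose and 12 fell in HFD and 31 rose and 2 fell in HFD+1B against chow, 2 rose and 2 fell in 1B against chow, and 15 rose and none fell in the interaction. From Cy5 alone, 17 rose and 2 fell in HFD+1B and 2 rose and none fell in 1B against chow. The shares of all probes called with median centring and from Cy5 alone were not computed, so nothing about the pathway is read from these counts.

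**Figure D4:**
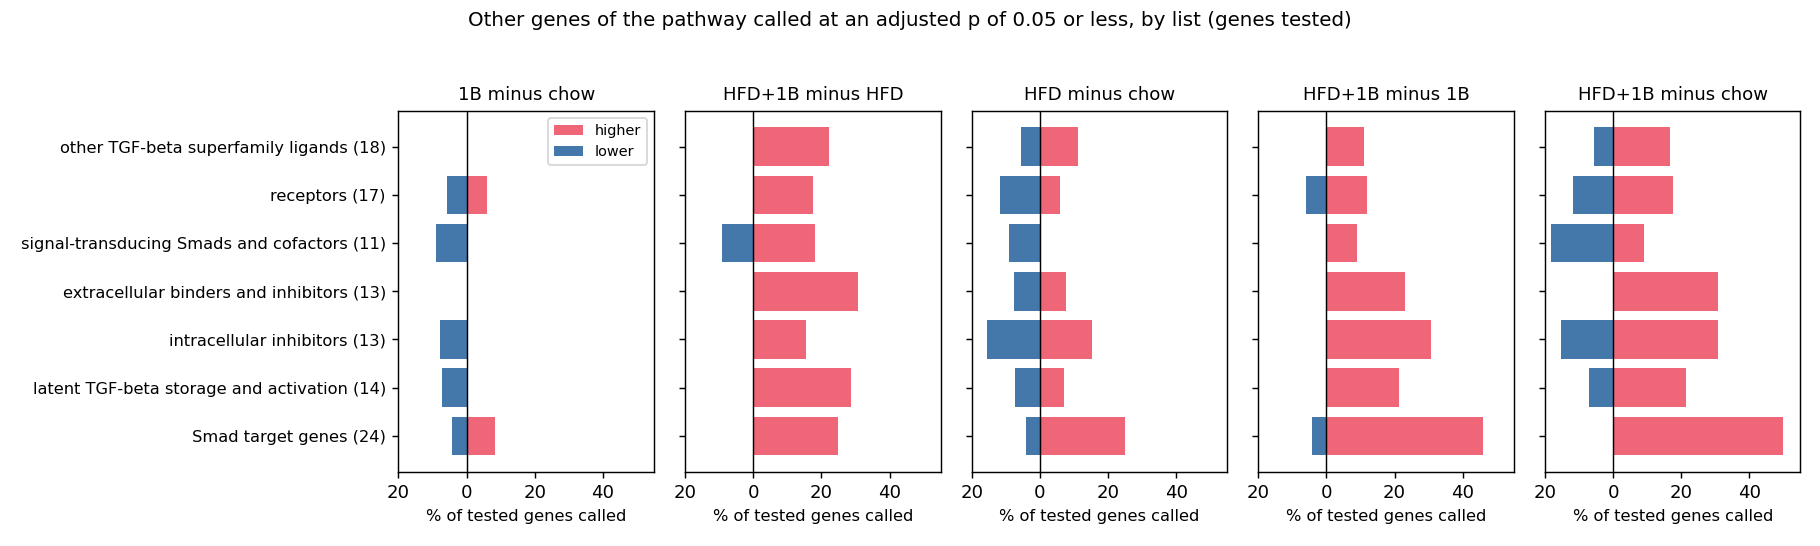
Percent of the tested genes of 7 pathway lists (rows, with the number tested) called higher (red, to the right) or lower (blue, to the left) in 5 comparisons. In HFD+1B minus chow 12 of the 24 Smad target genes are called higher and none lower, and in 1B minus chow 2 are called higher and 1 lower.

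Among the 17 receptors, Tgfbr2, the type II receptor of TGF-beta, rose after ethanol on both diets. Chow mice averaged -1.50 (SD 0.07), 1B mice 0.27 (SD 0.20), HFD mice -1.06 (SD 0.17) and HFD+1B mice 0.06 (SD 0.35), and the ethanol groups lay wholly above the maltose groups. The difference was 1.77 (SE 0.15, adjusted p = 5.9e-06) on chow and 1.12 (SE 0.15, adjusted p = 0.0001) on the high-fat diet. The other 2 probes of Tgfbr2 gave 0.15 and 0.76 on chow and -0.34 and 0.64 on the high-fat diet, so that one of them differed in sign. Acvr2b, a type II receptor of activins, fell in all 3 groups against chow, with differences of -0.49 (SE 0.11, adjusted p = 0.0124) in 1B, -0.62 (SE 0.11) in HFD and -0.85 (SE 0.10, adjusted p = 1.6e-05) in HFD+1B. Acvr1b, a type I receptor of activins, rose in HFD+1B against chow by 0.74 (SE 0.19, adjusted p = 0.012), but its other probe gave 0.11. Tgfbr1, the type I receptor of TGF-beta, fell in HFD against chow, with a difference of -0.50 (SE 0.13), and rose in HFD+1B against HFD by 0.44 (SE 0.12), but its other probe gave 0.23 and -0.003.

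Of the 11 Smads and cofactors, Smad2, which carries the activin and TGF-beta signal, fell after ethanol on both diets, with differences of -0.44 (SE 0.10, adjusted p = 0.0145) on chow and -0.39 (SE 0.09, adjusted p = 0.008) on the high-fat diet. Smad1, which carries the BMP signal, rose in HFD+1B against chow by 0.76 (SE 0.15, adjusted p = 0.0018). Foxh1, a nuclear partner of Smad2, was low in HFD, at -1.08 (SD 0.26). Chow mice averaged 0.27 (SD 0.09, n = 3 values), 1B mice 0.13 (SD 0.24) and HFD+1B mice 0.18 (SD 0.52). HFD differed from chow by -1.34 in Foxh1, but by only -0.32 from Cy5 alone. HFD+1B differed from HFD by 1.25, and by 0.67 from Cy5 alone.

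Among the 18 genes listed as other ligands, Gdf15, a secreted stress-response factor, rose in HFD against chow by 0.85 (SE 0.23) and in HFD+1B against HFD by 1.07 (SE 0.22, adjusted p = 0.003). Chow mice averaged -1.37, 1B mice -1.56, HFD mice -0.53 and HFD+1B mice 0.54. Nodal, an activin-like ligand, rose in HFD+1B against HFD by 0.77 (SE 0.16). Bmp1, which this list holds although it is a matrix protease and not a ligand, rose by 0.62 (SE 0.13), but its other probe gave -0.24. Bmp7 fell in HFD against chow, with a difference of -0.81 (SE 0.14), and its other probe gave -0.19.

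Of the 13 tested extracellular binders, 4 rose and none fell in HFD+1B against HFD, beside 9.92% and 8.02% of all probes. Against chow, 4 rose and none fell in HFD+1B, beside 7.8% and 6.98%, with Bmper the 1 gene in both comparisons. Fstl3, like Fst an activin binder, fell in HFD against chow, with a difference of -0.54 (SE 0.16), and rose in HFD+1B against HFD by 0.75 (SE 0.15, adjusted p = 0.0025). Bmper, a BMP binder, rose in HFD+1B against chow by 1.27 (SE 0.17) and Dcn, a TGF-beta-binding proteoglycan, by 1.04 (SE 0.23). The other probe of Bmper gave 0.39. Of the 13 intracellular inhibitors, Pmepa1, which sequesters Smads, rose in HFD+1B against chow by 1.64 (SE 0.17) and against HFD by 1.00 (SE 0.17), and its other probe gave 0.33 and 0.15. Tob1, an antiproliferative factor, fell in 1B, HFD and HFD+1B against chow, with differences of -1.15 (SE 0.25), -1.04 (SE 0.25) and -1.10 (SE 0.24).

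Of the 14 genes of latent TGF-beta storage and activation, 4 rose and none fell in HFD+1B against HFD, beside 9.92% and 8.02% of all probes. Tgm2, a transglutaminase that crosslinks the latent complex, rose by 1.73 (SE 0.24, adjusted p = 0.00019), and against chow by 3.14 (SE 0.24). Thbs1, an activator of latent TGF-beta, rose against HFD by 0.82 (SE 0.24, adjusted p = 0.0255). Itgb6, the beta subunit of an activating integrin, fell in HFD against chow, with a difference of -1.75 (SE 0.19), and rose in HFD+1B against HFD by 0.92 (SE 0.18), but its other 2 probes lay between -0.12 and 0.05 in these comparisons.

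Of the 24 tested Smad target genes, 12 rose and none fell in HFD+1B against chow, with a median difference of 0.57, beside 7.8% of all probes higher and 6.98% lower. In HFD against chow 6 rose and 1 fell, with a median of 0.35, beside 3.88% and 6.1%, and in 1B against chow 2 rose and 1 fell, with a median of 0.01, beside 1.84% and 1.78%. Cdkn1a, a cell-cycle inhibitor that many signals besides Smads induce, rose in HFD+1B against chow by 4.03 (SE 0.39, adjusted p = 2.9e-06). Col1a1 rose in HFD against chow by 2.37 (SE 0.43, adjusted p = 0.0028) and in HFD+1B against chow by 2.19 (SE 0.43). Its other 2 probes lay between 0.21 and 1.96 in HFD and between 1.58 and 2.07 in HFD+1B. Klf10, an early TGF-beta response gene, rose after ethanol by 2.29 (SE 0.33, adjusted p = 0.00048) on chow and by 1.31 (SE 0.31, adjusted p = 0.0077) on the high-fat diet. Acta2, smooth muscle actin, rose after ethanol by 0.66 (SE 0.17, adjusted p = 0.0383) on chow and by 1.41 (SE 0.15) on the high-fat diet, while its other 3 probes lay between -0.23 and 0.32. Id3, an early target of BMP signals, fell in 1B against chow, with a difference of -0.85 (SE 0.18, adjusted p = 0.0096).

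**Figure D5:**
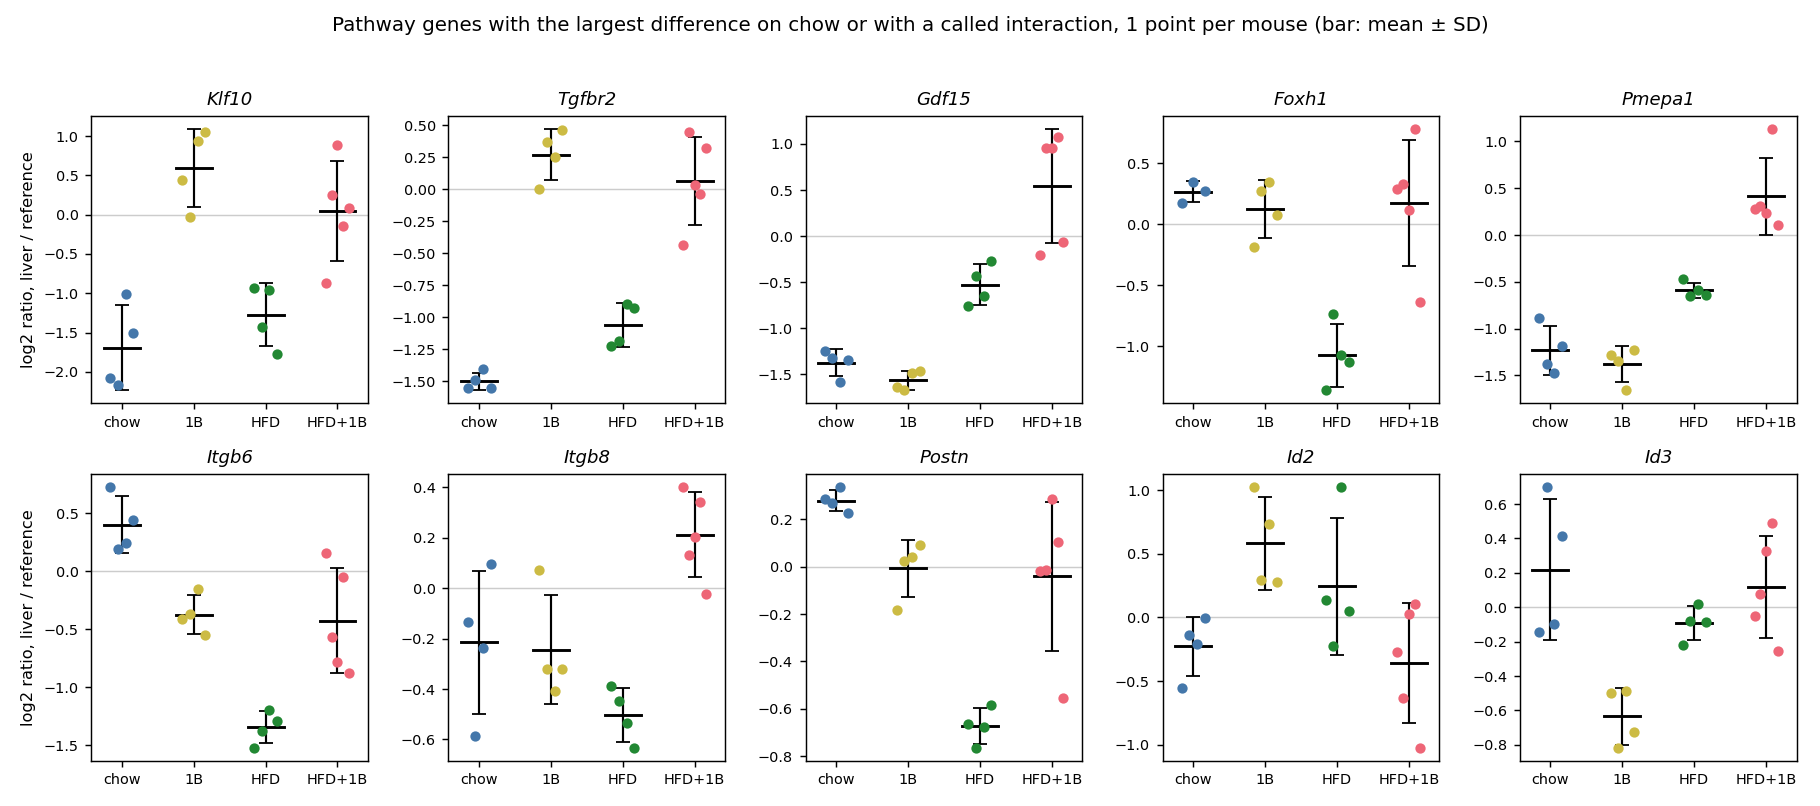
Log2 ratio of liver to reference (y axis, own scale in each panel) of 10 pathway genes in the 4 groups, with 1 point per mouse, the mean as a horizontal line and the SD as a bar; these genes had either 1 of the 2 largest differences between 1B and chow or a called interaction. Klf10 and Tgfbr2 are higher in both ethanol groups than in the maltose group of the same diet, and Pmepa1 is highest in HFD+1B.

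For the 6 called members that were well above background on all 17 arrays, the genes whose log2 ratios followed theirs most closely over the arrays were named among 15365 genes by Pearson's r, which is a description, since the arrays share the 4 groups and the reference. Inhba and Fst were not compared. For Inhbc they were Mtmr4 (r = 0.97), Cables2 (r = 0.97) and Tarsl2 (r = 0.95), and for Tgfb1 Vim (r = 0.96), Nenf (r = 0.94) and Ckap4 (r = 0.94). For Tgfb3 they were Zyx (r = 0.93), B830017H08Rik (r = 0.93) and Bmp2k (r = 0.92), and for Smad7 Sucnr1 (r = 0.92), Emc9 (r = 0.91) and Sirt3 (r = 0.90). For Inhbb they were Usp29 (r = 0.93), Rusc1 (r = 0.92) and P2rx2 (r = 0.91). The best matches of Inhbe were the weakest of these 6, with R3hcc1, Tcp1 and Usp40 at r = 0.86.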

How the data were processed

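The authors scanned the arrays with Agilent Feature Extraction 11.5.1.1, and the deposited files give each spot's median Cy5 and Cy3 intensity and its local background, on an array annotated on mm9. A deposited table by the authors also gives a log2 ratio of Cy5 to Cy3 per probe. It holds the gene symbols used here and matched the log2 ratio of the processed signals in the scanner files. Intensities were corrected with normexp (offset 50), and log2 ratios were normalized by loess within arrays, with control and outlier spots given no weight and outlier spots left out (3424 missing values among the tested probes). Spots of a probe were averaged. limma 3.58.1 in R 4.3.3 was fitted to all 17 arrays and 4 groups with p-values adjusted by the Benjamini-Hochberg method over 34650 probes (19359 genes), and was tested on simulated data. Standard errors and 95% intervals come from this fit. The 10 genes and the pathway and marker lists were chosen with earlier results of these data known. All members were named, and of each pathway list and comparison the 3 called genes with the largest differences could be named. Of such named differences, 92 of 92 kept their sign without background subtraction, in the deposited log2 ratios, with median centring and from Cy5 alone, and of the 46 whose gene had another tested probe, 16 had one of the opposite sign. The number of arrays limits the precision. The p-values set a difference against the residual spread between arrays, in which mouse, hybridization and slide are not separated. The reference carries no dye swap, so dye bias of single probes is part of every ratio and cancels between groups only where it is equal on all arrays. Motifs were counted in RefSeq promoters of GRCm38.p6, and figures were drawn with matplotlib.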

Additional observations from a re-analysis of the deposited data

Results flagged for a closer look

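The interaction, the ethanol effect on the high-fat diet minus that on chow, was called for Inhba (-2.25), for Inhbe (-2.31) and for the dimmer probe of Inhbc (-0.648), and these members had been chosen with such values in view. The call for Inhbe was lost in 10 of 27 alternatives and that for Inhba in none of 26, and the dimmer probe of Inhbc was not followed through them. Among the other pathway genes, the interaction passed the limma test for Itgb6 (1.70, adjusted p = 0.003), Foxh1 (1.39, adjusted p = 0.0222), Gdf15 (1.26, adjusted p = 0.0352), Pmepa1 (1.15, adjusted p = 0.0174), Id3 (1.06, adjusted p = 0.0225), Postn (0.918, adjusted p = 0.0116) and Itgb8 (0.742, adjusted p = 0.0354), and with the opposite sign for Id2 (-1.42, adjusted p = 0.0365). The other 2 probes of Itgb6 gave an interaction between -0.09 and 0.05 and those of Itgb8 between -0.23 and 0.14. The other probe of Pmepa1 gave 0.26 and that of Postn 0.18, and those of Id2 lay between -1.24 and -0.25. Cy5 alone called an interaction for none of the pathway genes.

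In chow mouse 1 the brighter probe of Inhbc, at 0.17 against 0.49 for the next mouse, stood apart from its group, with a gap of 0.906 of the group's range. Over 52 groups of probes examined, 1 such gap was found, where chance gives about 2.6.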

How the results depend on the processing

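Every member difference called in the report kept its sign under all settings that gave a value, 26 to 29 for each difference, the leave-one-out fits included. The call was lost in 14 of 29 settings for Tgfb1 in HFD+1B against 1B and in 11 against chow, in 10 of 27 for Inhbe in the interaction, in 7 of 29 for Inhbe in HFD+1B against 1B, in 6 of 29 for Smad7 in HFD+1B against chow, in 5 of 28 for Inhba and 5 of 29 for Inhbb between HFD+1B and HFD, and in at most 2 for each of the other 13. Counts of calls moved as follows, and the share of all probes called was computed only for the main fit of the report. The deposited log2 ratios called 0 members in 1B against chow (1 in the report) and 3 in HFD+1B against chow (5 in the report). Median centring called 4 pathway genes in 1B against chow, 40 between HFD+1B and HFD (25 of them among the 26 of the report) and 15 in the interaction, and 1 member in the interaction. Cy5 alone called 3 members in HFD+1B against chow. Its pathway calls were 2 for 1B and 10 for HFD against chow, 14, 11 and 19 for HFD+1B against HFD, 1B and chow, and 0 for the interaction, where the report has 8, 22, 26, 28, 38 and 8. The filter on all 17 arrays, which leaves out Inhba and Fst, called 2 members in 1B against chow and 1 in the interaction. Slide as a block called 2 members in 1B against chow, 2 in HFD against chow and 4 in the interaction, and 13 pathway genes in the interaction. A fold of 2 with an unadjusted p of 0.05 or less called 3, 3 and 2 members in HFD+1B against HFD, 1B and chow, and 5 pathway genes for 1B and 9 for HFD against chow, and 9, 11 and 15 for HFD+1B against HFD, 1B and chow. The methods' analysis of variance with Tukey's test called 3 members in 1B against chow, and after Benjamini-Hochberg adjustment 1, 3 and 3 members in HFD+1B against HFD, 1B and chow, and 2 pathway genes for 1B and 6 for HFD against chow, and 12, 5 and 13 for HFD+1B against HFD, 1B and chow. The mean of all probes of a gene called 2 members in 1B against chow. The cause of these shifts was not tested.

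The replicate number as a block called 3 members in 1B against chow, 2 in HFD against chow and 4 in the interaction, and 14 pathway genes in the interaction. Same-numbered mice of different groups had deviations correlated between -0.13 and 0.47 (median 0.17, against -0.05 for other numbers), and 9 of 17 arrays correlated best with an array of their own number. On the same slide the median was 0.19, against -0.04 for other slides. Since some same-numbered pairs fell below 0.1, the numbers were not taken to pair the mice.

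With 1 mouse left out, members called ranged from 1 to 3 in 1B against chow (3 without chow mouse 1, 2 without chow mouse 2, 1B mouse 4, HFD mouse 3 or HFD+1B mouse 1, 3 or 4), 4 to 7 between HFD+1B and HFD, 0 to 1 in HFD against chow (1 without HFD+1B mouse 1), 4 to 6 in HFD+1B against 1B, 3 to 5 in HFD+1B against chow (3 without chow mouse 3 or 4) and 1 to 3 in the interaction (1 without chow mouse 1 or 2, 1B mouse 1, 2 or 3, HFD mouse 1, 3 or 4, or HFD+1B mouse 1). Pathway genes ranged from 4 to 10, 22 to 31, 12 to 26, 17 to 29, 35 to 39 and 3 to 10 in the same order. Those in 1B against chow were 4 without chow mouse 3 and 5 without chow mouse 4 or 1B mouse 2. In HFD against chow there were 12 without chow mouse 4 and 14 without HFD mouse 3, and in HFD+1B against 1B 17 without 1B mouse 3. In the interaction there were 3 without chow mouse 4 and 5 without chow mouse 1, chow mouse 3 or HFD mouse 3. Weak signal over background limits Inhba and Fst, and not in HFD mice alone. Smad7 and Bambi were also dim, although both stayed well above background on every array. The mean liver signal of Smad7 over background was lowest for HFD mice, at 43.4. It reached 54.5 for 1B mice, against 123.6 for chow mice. The differences of these 2 groups from chow for Smad7 thus also rest on a weak group. The brighter Bambi probe was weak throughout, with group means between 51.5 and 69.0. For Inhba the mean liver signal over background was lowest in HFD+1B mice (38), then HFD (56.25) and chow (63.5). It was 242.9 in 1B mice. For Fst the lowest mean was that of HFD mice (19.4), followed by chow (31.4) and 1B (43.1), with HFD+1B at 257.3. The differences of HFD+1B from chow and from HFD for Fst thus each rest on a weak group. So do those of 1B from chow and from HFD+1B for Inhba. Between HFD+1B and HFD for Inhba, and between 1B and chow for Fst, both groups were weak. The interactions of Inhba and Fst take in these differences.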
